A study of Mus musculus with 34 samples.

Results

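A comparison of RNA-seq library preparations from mouse liver was read through 10 genes: 5 marker genes of Kupffer cells (Clec4f, Vsig4, Cd5l, Marco and Adgre1) and 5 marker genes of the liver sinusoidal endothelium (Stab1, Stab2, Clec4g, Lyve1 and Fcgr2b). They were chosen by name, as established markers, and are 10 of the 51368 genes in the table. The libraries came from the liver and heart RNA of 1 wild-type C57BL/6J mouse aged 12 weeks, whose sex the labels contradict (female as a sample trait, male in the breeding note). Replicates are repeat preparations of 1 animal's RNA. The study asked what the removal of ribosomal RNA (rRNA), the ramp rate of the amplification PCR and the fragment length do to the measurement. For liver, 9 libraries were selected by the poly(A) tail (polyA, TruSeq Stranded mRNA kit, batch 1), 9 by removing rRNA on hybridised probes (pull-down, TruSeq Stranded Total RNA kit, batch 2) and 9 by enzymatic digestion of rRNA bound to DNA probes (digestion, Illumina Stranded Total RNA Prep Ligation kit with Ribo-Zero Plus and exchanged adapters, batch 2). Each set of 9 held 1 library at every combination of slow, medium and fast ramp with short, medium and long fragments. Unselected libraries, made from 20 ng of RNA in place of 200 ng, numbered 3 for liver in batch 1, 3 for liver in batch 2 and 1 for heart in batch 1, all with slow ramp and medium fragments. The batch is the one in the library titles. Batch 1 holds every polyA library and batch 2 every library of the rRNA methods, so polyA selection and batch cannot be told apart when these are compared. Each method was therefore first set against the unselected libraries of its own batch.

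Kupffer cells are the resident macrophages of the liver. They sit in the lumen of the sinusoids, the capillaries of the liver, and take up particles, bacteria and aged red cells from portal blood. The sinusoidal endothelial cells form the wall of the same capillaries, which is fenestrated and lacks a continuous basement membrane, and they are among the most active scavengers of soluble waste molecules in the body. Both cell types are a minority beside the hepatocytes, so their transcripts are a small part of whole-liver RNA. In bulk libraries, fewer cells of a type and less RNA per cell cannot be told apart. All liver libraries here drew on 1 liver's RNA, so differences between them are differences of measurement.

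The 10 genes lie on 9 chromosomes of GRCm38 (GENCODE M21 annotation), and the lengths given are those of the longest coding transcript. The Kupffer genes were Clec4f (chromosome 6, 83644542 to 83656187, 2471 nt), Vsig4 (chromosome X, 96247203 to 96293438, 1432 nt), Cd5l (chromosome 3, 87357881 to 87371073, 2036 nt), Marco (chromosome 1, 120474538 to 120505024, 1925 nt) and Adgre1 (chromosome 17, 57358691 to 57483527, 3238 nt). The sinusoidal genes were Stab1 (chromosome 14, 31139013 to 31168641, 7999 nt), Stab2 (chromosome 10, 86841198 to 87008025, 8228 nt), Clec4g (chromosome 8, 3707064 to 3720651, 1441 nt), Lyve1 (chromosome 7, 110850607 to 110863239, 2893 nt) and Fcgr2b (chromosome 1, 170958617 to 170976547, 3544 nt). For 9 of the 10, no stretch of 31 bases of that transcript occurred in a transcript of another gene, although other annotated transcripts of Stab1 share stretches with 296 genes. Fcgr2b was the exception, with 9.79% of its stretches shared, most of them with its neighbouring receptor gene Fcgr3, and the values of Fcgr2b and Fcgr3 are therefore uncertain in that part. The longest run that the coding parts of both genes share is 129 bases, printed because a read inside it fits either gene. It spans bases 278 to 406 of the Fcgr2b coding sequence and 263 to 391 of that of Fcgr3.
Fcgr2b and Fcgr3, identical coding run: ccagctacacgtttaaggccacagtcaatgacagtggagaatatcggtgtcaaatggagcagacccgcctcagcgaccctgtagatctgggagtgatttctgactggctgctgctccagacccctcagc
Exons of 4 sinusoidal genes overlapped a gene on the opposite strand by a short part: 112 bases of Stab1 with Nt5dc2, and 141 bases of Stab2, 146 of Clec4g and 155 of Fcgr2b with Gm16268, Gm16553 and Gm38204. All kits were stranded, but whether the counting used strand is not given in the sources used here, so reads in these overlaps cannot be assigned with certainty.

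Summed estimated counts per library, in M (mega), lay between 19.9 and 21.7 M for unselected liver, 23.5 and 41.4 M for polyA, 20.0 and 30.2 M for digestion and 23.4 and 39.2 M for 8 of the 9 pull-down libraries. The pull-down library with slow ramp and long fragments stood apart with 1.13 M counts, and its values for these genes rest on 8 (Vsig4) to 120 (Stab1) counts. Genes annotated as rRNA, with Lars2, whose annotated transcripts carry rRNA-like sequence, took 84.8% to 85.7% of the counts in unselected liver, 14.2% to 24.5% in pull-down, and at most 1.12% in digestion and 0.406% in polyA. Levels below are normalised CPM (counts as a rate per library total, after scaling by the TMM method, which centres most genes at no change). A fold change is therefore relative to other genes. On plain library totals, rRNA included, the median gene rose against unselected libraries by 2.67 (polyA), 2.31 (pull-down) and 2.85 (digestion) on the log2 scale, and all 10 marker genes were then above unselected in every method. Of all 15422 genes, 14264, 14635 and 15101 were then called higher. Hepatocyte genes (Alb, Apoa1 and 8 others) summed to between 50140 and 85310 normalised CPM per liver library, and 10 heart muscle genes to at most 1.05. In edgeR's quasi-likelihood test the 6 unselected liver libraries gave no adjusted p under 0.05 between batches for any of 15422 genes (0%), with 848 genes and none of the 10 members under 0.05 before adjustment, while DESeq2's Wald test called 18 genes and edgeR on these 6 libraries alone 39 of 10642, none of them members. All p-values measure the spread between preparations of 1 RNA sample.

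In unselected liver of batch 1, levels per kilobase of transcript placed Cd5l first at 19.6 ± 0.739 normalised CPM per kb (SD, n = 3), then Clec4f at 15.4 ± 0.712 and Clec4g at 13.65 ± 0.5605. Stab2 (9.55 ± 0.487), Fcgr2b (8.33 ± 0.284), Stab1 (8.09 ± 0.618) and Vsig4 (6.95 ± 0.584) followed. Adgre1 (4.04 ± 0.210), Lyve1 (2.29 ± 0.253) and Marco (1.87 ± 0.826) were lowest. Fcgr2b and Stab1 lay within 1 SD of each other, as did Lyve1 and Marco. Batch 2 kept Cd5l, Clec4f and Clec4g in the first 3 places, with Clec4f (14.2 ± 0.986) and Clec4g (13.97 ± 1.575) within their spread. Across the selection methods the order changed in places. In polyA libraries Stab2 dropped from the fourth to the seventh place (2.85 ± 0.2205 normalised CPM per kb, n = 9), below Vsig4 (4.34 ± 0.615), and Clec4g (13.1 ± 0.252) and Clec4f (13.05 ± 0.529) lay within 1 SD of each other.

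**Figure D1:**
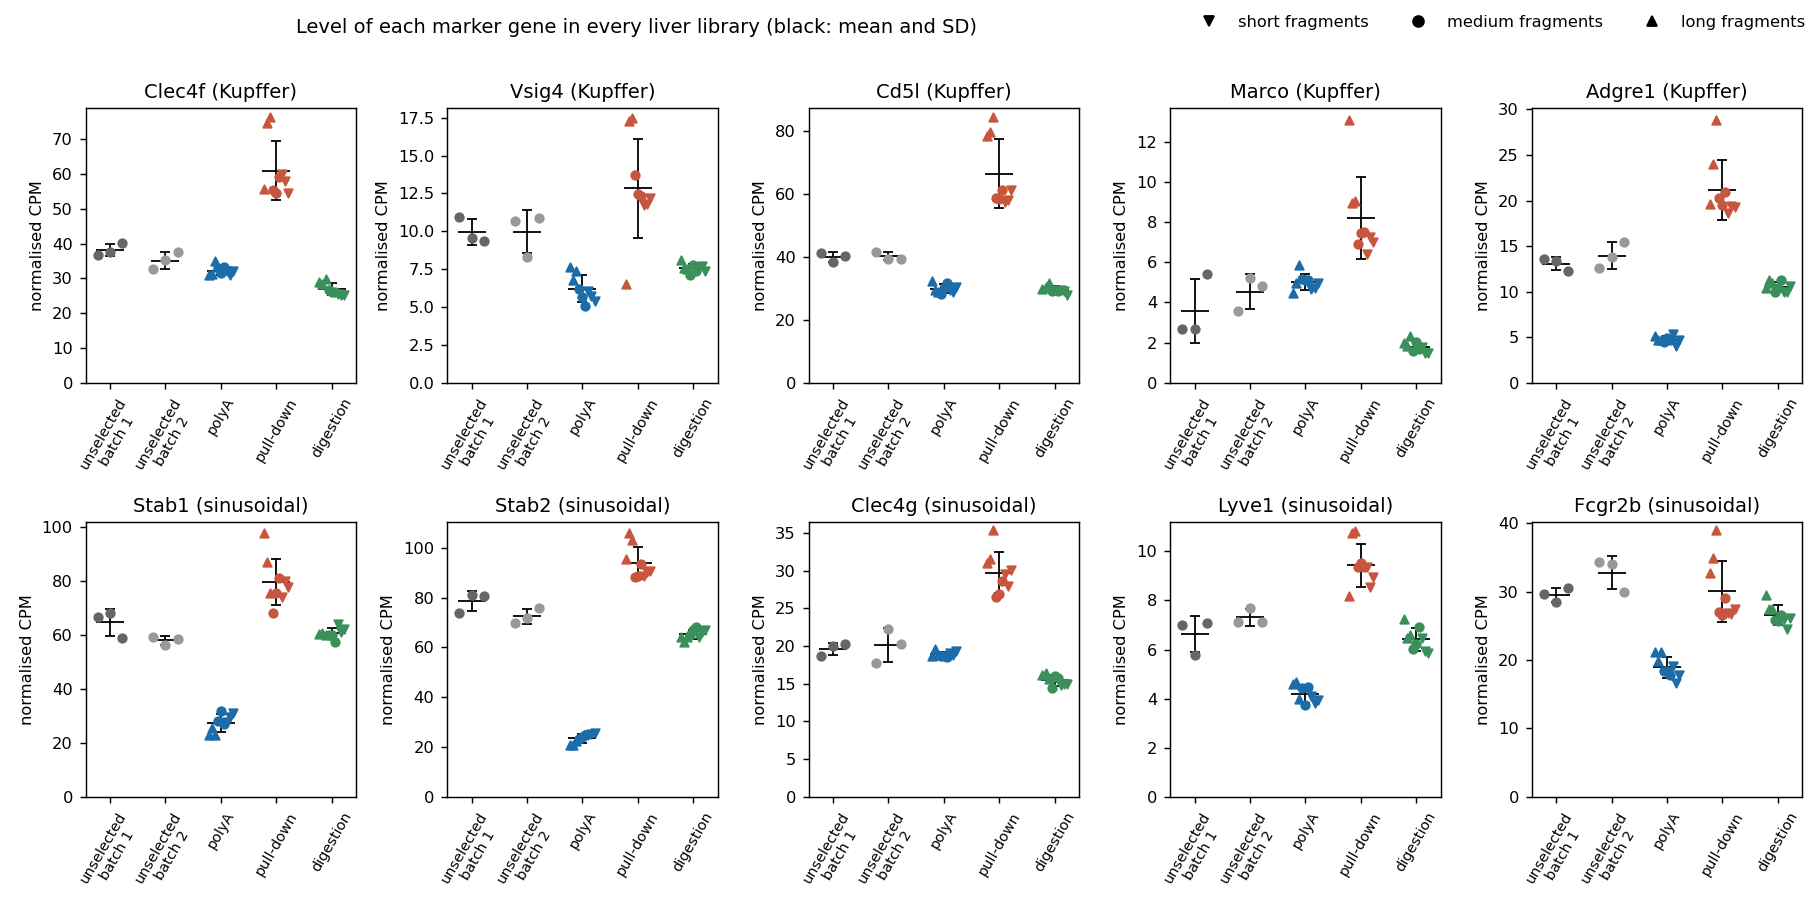
Normalised CPM (linear axes from 0) of each marker gene in the 33 liver libraries, 1 point per library, with marker shape for fragment length and black bars for the mean and SD of each group. The pull-down mean is highest for every gene but Fcgr2b, and all polyA libraries lie below all others for Adgre1, Stab1 and Stab2; on library totals each method was above unselected for all 10 genes.

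Clec4f encodes a galactose-binding lectin that is largely restricted to Kupffer cells in mouse liver. It was at 36.7, 37.6 and 40.1 normalised CPM in the batch 1 unselected libraries and at 32.6, 35.2 and 37.5 in those of batch 2. PolyA libraries ranged from 30.9 over a median of 32.0 to 34.9, pull-down from 54.6 over 58.0 to 76.3 and digestion from 25.3 over 26.1 to 29.7. Every pull-down library was above, and every digestion library below, each unselected and polyA library. Cd5l encodes a secreted scavenger receptor protein of tissue macrophages. It was at 41.2, 38.3 and 40.3 in unselected batch 1 and 41.6, 39.4 and 39.4 in batch 2. PolyA (28.0, median 29.6, 32.2) and digestion (27.8, 29.3, 31.7) overlapped almost fully, both below all unselected libraries, and pull-down (57.5, 61.0, 84.2) was above them all.

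Vsig4 encodes the complement receptor with which Kupffer cells capture opsonised bacteria. It was at 10.9, 9.57 and 9.39 in unselected batch 1 and 10.7, 8.34 and 10.9 in batch 2, on 40 to 53 counts. PolyA (5.10, median 6.08, 7.65) and digestion (7.12, 7.57, 8.12) were below the unselected libraries of their batch. Pull-down ran from 6.54 over 12.3 to 17.5, and its lowest value was the shallow library with 8 counts. Marco, a scavenger receptor for bacteria and particles, had the thinnest data, with 12 to 26 counts per unselected library. It was at 2.68, 2.67 and 5.43 in unselected batch 1 and 3.56, 5.21 and 4.82 in batch 2. PolyA (4.47, median 4.97, 5.87) lay within the batch 1 range or just above it. Pull-down (6.40, 7.46, 13.1) was above and digestion (1.46, 1.80, 2.31) below every unselected library, the highest pull-down value being 16 counts of the shallow library.

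Adgre1 encodes F4/80, the adhesion receptor long used to stain mouse macrophages. It was at 13.6, 13.4 and 12.3 in unselected batch 1 and 12.6, 13.8 and 15.5 in batch 2. PolyA ranged from 4.05 over 4.71 to 5.31, pull-down from 18.7 over 19.6 to 28.9 and digestion from 9.92 over 10.4 to 11.3. No range of 1 method touched that of another, and polyA libraries were the lowest. Of all genes tested, 50.8% did not overlap between polyA and digestion, 29.1% between digestion and pull-down and 21.3% between polyA and pull-down.

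Stab1 and Stab2 encode the stabilins, large scavenger receptors of the sinusoidal endothelium. Stab1 was at 66.8, 68.3 and 59.1 in unselected batch 1 and 59.4, 56.3 and 58.6 in batch 2. PolyA (22.8, median 27.9, 32.0) was far below, digestion (57.6, 60.3, 64.2) overlapped the unselected libraries and pull-down (68.1, 77.7, 98.04) was above those of its batch. Stab2, which clears hyaluronan from blood, was at 74.0, 81.2 and 80.6 in unselected batch 1 and 69.6, 71.9 and 75.8 in batch 2. PolyA ranged from 20.8 over 24.0 to 25.5, digestion from 62.3 over 65.1 to 68.0 and pull-down from 88.2 over 90.7 to 106. The 3 methods did not overlap for either stabilin, beside 50.8% of all genes without overlap between polyA and digestion.

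Clec4g, a C-type lectin of the sinusoidal endothelium, was at 18.8, 20.0 and 20.2 in unselected batch 1 and 17.8, 22.3 and 20.3 in batch 2. PolyA libraries spread little (18.6, median 18.8, 19.7) and lay inside the range of both unselected batches together. The lowest of them (18.58) was just under the batch 1 range (18.75 to 20.24). Digestion (14.4, 15.6, 16.4) was below and pull-down (26.5, 29.6, 35.4) above all unselected libraries. Lyve1, a hyaluronan receptor shared with lymphatic vessels, was at 7.004, 5.78 and 7.10 in unselected batch 1 and 7.11, 7.71 and 7.12 in batch 2. PolyA (3.72, median 4.10, 4.69) was below these, digestion (5.85, 6.47, 7.23) overlapped them and pull-down (8.17, 9.36, 10.8) was above. Fcgr2b, the inhibitory Fc receptor with which the endothelium clears small immune complexes, was at 29.7, 28.5 and 30.5 in unselected batch 1 and 34.3, 34.0 and 30.0 in batch 2. PolyA (16.6, median 18.4, 21.2) was again lowest. Pull-down (26.6, 27.5, 39.0) and digestion (24.5, 26.2, 29.5) overlapped each other. Vsig4 was the other gene whose pull-down and digestion ranges overlapped, there through the shallow library.

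In every comparison with unselected libraries, selection and the input of 200 or 20 ng cannot be told apart, nor, for polyA and digestion, can the kit. Against unselected libraries of batch 1, 8 of the 10 genes were lower in polyA libraries and none higher (edgeR quasi-likelihood test on 33 liver libraries, Benjamini-Hochberg adjusted p under 0.05; of the 15422 genes tested, 24.8% were called lower and 25.6% higher). The fall was steepest for Stab2, at -1.78 ± 0.07 on the log2 scale (SE, adjusted p = 8.67e-19), a level 3.42-fold lower. Adgre1 fell by 1.52 ± 0.13 (adjusted p = 2.90e-11) and Stab1 by 1.27 ± 0.10 (adjusted p = 2.59e-12). Vsig4, Fcgr2b, Lyve1, Cd5l and Clec4f fell less, with log2 changes from -0.76 to -0.30 and adjusted p from 6.93e-09 to 0.00376. Clec4g (-0.13 ± 0.08, adjusted p = 0.233) and Marco (0.41 ± 0.20, adjusted p = 0.0886) did not pass the test. Marco's value rested on 1 library: without the third unselected library of batch 1, which held 26 counts against 12 and 13, it was 0.85 (adjusted p = 0.00561). The median change was -0.49 over the 5 Kupffer genes and -0.70 over the 5 sinusoidal genes, beside 0.04 over all genes tested. On totals without rRNA genes and Lars2, called the rRNA-free scale below, Clec4g was also lower (-0.26, adjusted p = 0.0106).

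Against unselected libraries of batch 2, 9 of the 10 genes were higher in pull-down libraries and none lower (17.5% of all genes were called higher and 15.3% lower). The Kupffer genes rose by a median of 0.63 and the sinusoidal genes by 0.39, beside 0.06 for all genes tested. Clec4f rose most, by 0.74 ± 0.09 (adjusted p = 4.77e-08, 1.67-fold), ahead of Marco (0.69 ± 0.18), Cd5l (0.63 ± 0.09) and Adgre1 (0.55 ± 0.12). Among the sinusoidal genes Clec4g rose by 0.48 ± 0.08, Lyve1 by 0.42 ± 0.10, Stab1 by 0.39 ± 0.10 and Stab2 by 0.33 ± 0.07. Vsig4 (0.39 ± 0.15, adjusted p = 0.0483) was close to the threshold, and Fcgr2b was at -0.19 ± 0.08 (adjusted p = 0.0614). On the rRNA-free scale Clec4f, Cd5l, Marco, Adgre1 and Clec4g were still called higher, Vsig4, Stab1, Stab2 and Lyve1 did not pass the test, and Fcgr2b was lower (-0.36, adjusted p = 3.26e-04). Of all 15422 genes, 1283 were called higher and 3573 lower on that scale. Vsig4 lost its call when any 1 of the 3 batch 2 unselected libraries was left out (adjusted p 0.0616 to 0.266), Lyve1 without the first (0.0622) or the third (0.0640), and without the third Fcgr2b was called lower (-0.24, adjusted p = 0.0343). DESeq2's Wald test called neither Vsig4 (adjusted p = 0.103) nor Lyve1 (0.0733), so 7 genes were higher, and called Fcgr2b lower (-0.26, 0.0191). Of all 15422 genes it called 2038 higher and 2922 lower. With DESeq2 size factors in edgeR the calls of Vsig4 and Lyve1 were also lost (0.116 and 0.0522), and in the fit of only the 2 groups that of Vsig4 was (0.147).

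In digestion libraries 7 of the 10 genes were lower than in the same unselected libraries and none higher (7.64% of all genes were called lower and 7.08% higher). All 5 Kupffer genes were among them. Marco fell by 1.40 ± 0.21 (adjusted p = 1.03e-05, 2.64-fold), while Cd5l (-0.52 ± 0.09), Adgre1 (-0.47 ± 0.12), Vsig4 (-0.46 ± 0.15) and Clec4f (-0.45 ± 0.09) changed by less, with adjusted p from 1.37e-04 to 0.0430. Of the sinusoidal genes Clec4g (-0.46 ± 0.08) and Fcgr2b (-0.36 ± 0.08) fell. Stab1 (0.03 ± 0.10), Stab2 (-0.18 ± 0.07) and Lyve1 (-0.17 ± 0.11) did not pass the test, with adjusted p from 0.0887 to 0.896. Vsig4 lost its call without the first (adjusted p = 0.188) or the third (0.213) batch 2 unselected library, on the rRNA-free scale (0.0769) and with no filter on low counts (0.103). Adgre1 lost it without the third (-0.38, adjusted p = 0.0891). Stab2 was called lower by DESeq2's Wald test (-0.23, adjusted p = 0.0271), with DESeq2 size factors in edgeR (0.0367) and in the fit of only the 2 groups (-0.17, 0.00380).

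**Figure D2:**
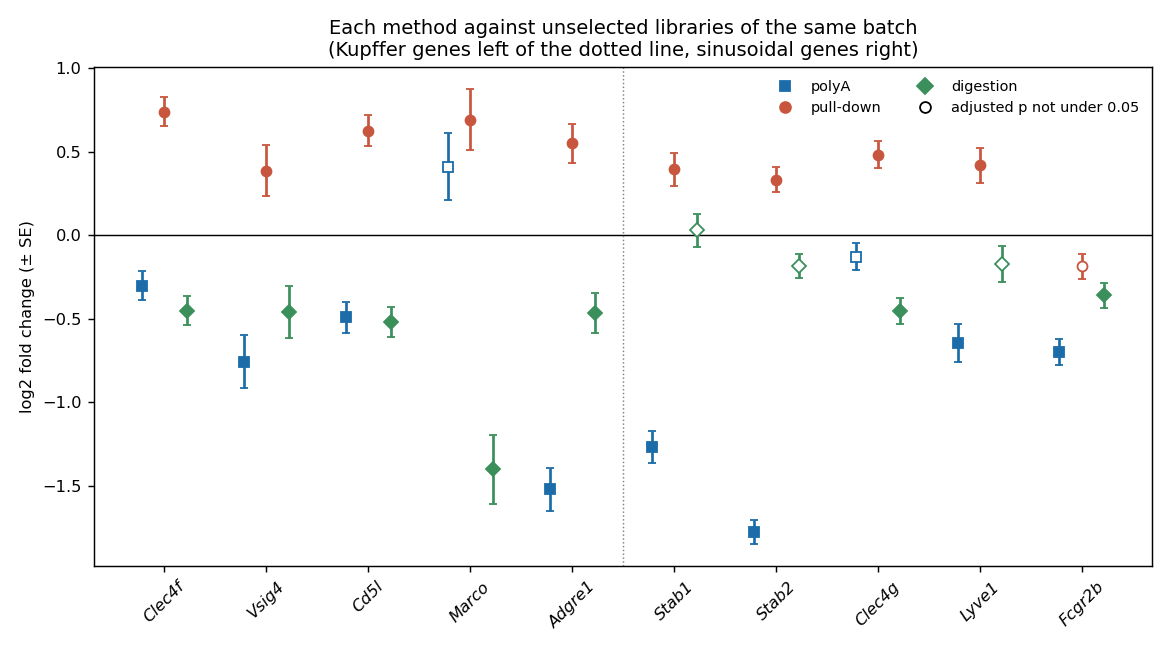
Log2 fold change (vertical axis, ± SE) of each gene under each method against the unselected liver libraries of the same batch, with open symbols where the adjusted p was not under 0.05. Pull-down points lie above 0 for 9 genes, digestion points below 0 for all but Stab1, and polyA points reach -1.78 for Stab2; on plain library totals all 30 points lie above 0.

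Pull-down and digestion were prepared in the same batch and differ in kit and rRNA chemistry. All 10 genes were lower in digestion than in pull-down (36% of all genes were called lower and 34.7% higher), with log2 changes from -2.09 ± 0.08 for Marco to -0.17 ± 0.04 for Fcgr2b. The Kupffer genes had a median of -1.15 and values from -2.09 to -0.85, and the sinusoidal genes a median of -0.52 and values from -0.94 to -0.17. Over libraries matched for ramp and length, digestion was lower in all 9 pairs for 9 genes, and in 8 of 9 for Vsig4, whose exception was the pair with the shallow library. Pairs were counted for the members only, so no share over all genes stands beside this count. On the rRNA-free scale Fcgr2b was higher in digestion (0.09, adjusted p = 0.0322) and Stab1 did not pass the test (-0.10, adjusted p = 0.129). On library totals 6 genes were lower and 2 higher (Fcgr2b 0.39 and Stab1 0.19), while Stab2 (0.04) and Lyve1 (-0.03) were not called; of all 15422 genes, 11397 were then called higher and 1228 lower.

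PolyA libraries were lower than pull-down for all 10 genes (36.2% of all genes were called lower and 36.4% higher). Adgre1 differed most (-2.16 ± 0.06, 4.48-fold), then Stab2 (-1.99 ± 0.04) and Stab1 (-1.51 ± 0.05), and Marco least (-0.61 ± 0.07). PolyA against digestion was mixed, with 3 genes higher (38.4% of all genes) and 6 lower (42.2%). Marco was 2.80-fold higher in polyA (1.48 ± 0.08, adjusted p = 3.05e-17), whereas Stab2 was 2.78-fold lower (-1.48 ± 0.04) and Stab1 and Adgre1 were each 2.21-fold lower (-1.14). Cd5l did not differ by the test (0.02 ± 0.05, adjusted p = 0.692). The smaller rises of Clec4f (0.27 ± 0.04) and Clec4g (0.29 ± 0.04) were lost on the rRNA-free scale (0.02 and 0.05, adjusted p 0.666 and 0.262), on which Cd5l was lower (-0.22, adjusted p = 1.82e-04). Batch and method cannot be told apart in these 2 comparisons.

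A ratio of counts within a library needs no scaling between libraries. The summed counts of the 5 Kupffer genes per summed counts of the 5 sinusoidal genes were 0.526 ± 0.0248 (SD, n = 3) in unselected batch 1 and 0.544 ± 0.0175 (n = 3) in batch 2. The ratio was 0.841 ± 0.0489 in polyA (n = 9, from 0.788 to 0.918), 0.695 ± 0.0562 in pull-down (0.652 to 0.817) and 0.437 ± 0.0189 in digestion (0.413 to 0.473). All polyA and pull-down libraries were above all unselected ones, all digestion libraries were below, and polyA and pull-down overlapped. The ratio mainly follows 4 genes. In unselected batch 1, Stab1 (64.7) and Stab2 (78.57) made up most of the sinusoidal sum of 199.1 normalised CPM. Clec4f (38.11) and Cd5l (39.91) made up most of the Kupffer sum of 104.7. Per 1000 counts of the 10 hepatocyte genes, sinusoidal counts were 3.35 ± 0.0552 in unselected batch 1 and 3.26 ± 0.0589 in batch 2, 3.36 ± 0.0667 in digestion and 3.38 ± 0.521 in pull-down, against 1.15 ± 0.0665 in polyA. Kupffer counts per 1000 were 1.76 ± 0.0546 and 1.77 ± 0.0765 in the unselected batches, 2.36 ± 0.444 in pull-down, 1.47 ± 0.0862 in digestion and 0.960 ± 0.0208 in polyA. The pull-down means join libraries that differed by length. Sinusoidal counts per 1000 were 3.605 to 4.441 with long and 2.896 to 3.264 with medium or short fragments. Kupffer counts were 2.897 to 2.99 with long and 1.98 to 2.175 with medium or short ones.

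The stabilins, which with Adgre1 fell most in polyA, have by far the longest transcripts of the 10. Over the 10 members the log2 change of polyA against digestion ran against transcript length (Pearson r = -0.728, Spearman rho = -0.794), and that of polyA against unselected did too (r = -0.743, rho = -0.673). These are descriptions over 10 genes measured in the same libraries, of which 2, the stabilins, exceed 6000 nt. The same direction held over 13402 protein-coding genes (r = -0.447, rho = -0.627 for polyA against digestion). Coding genes of 6000 nt or more had a median log2 change of -0.81 in that comparison and those under 1500 nt one of 0.70. Stab1 (-1.14) lay within the middle 50% of the long genes (-1.23 to -0.42) and Stab2 (-1.48) below it. Adgre1, at 3238 nt, was below the middle 50% of its class of 3000 to 6000 nt (-0.59 to 0.11), and Marco, at 1925 nt, above that of 1500 to 3000 nt (-0.08 to 0.53). Lyve1 (-0.61), at 2893 nt, was below the middle 50% of that same class. Vsig4 (-0.30) was below the middle 50% of genes under 1500 nt (0.34 to 1.05), and Clec4g (0.29) just below it. Clec4f (0.27), Cd5l (0.02) and Fcgr2b (-0.49) lay within the middle 50% of their classes.

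**Figure D3:**
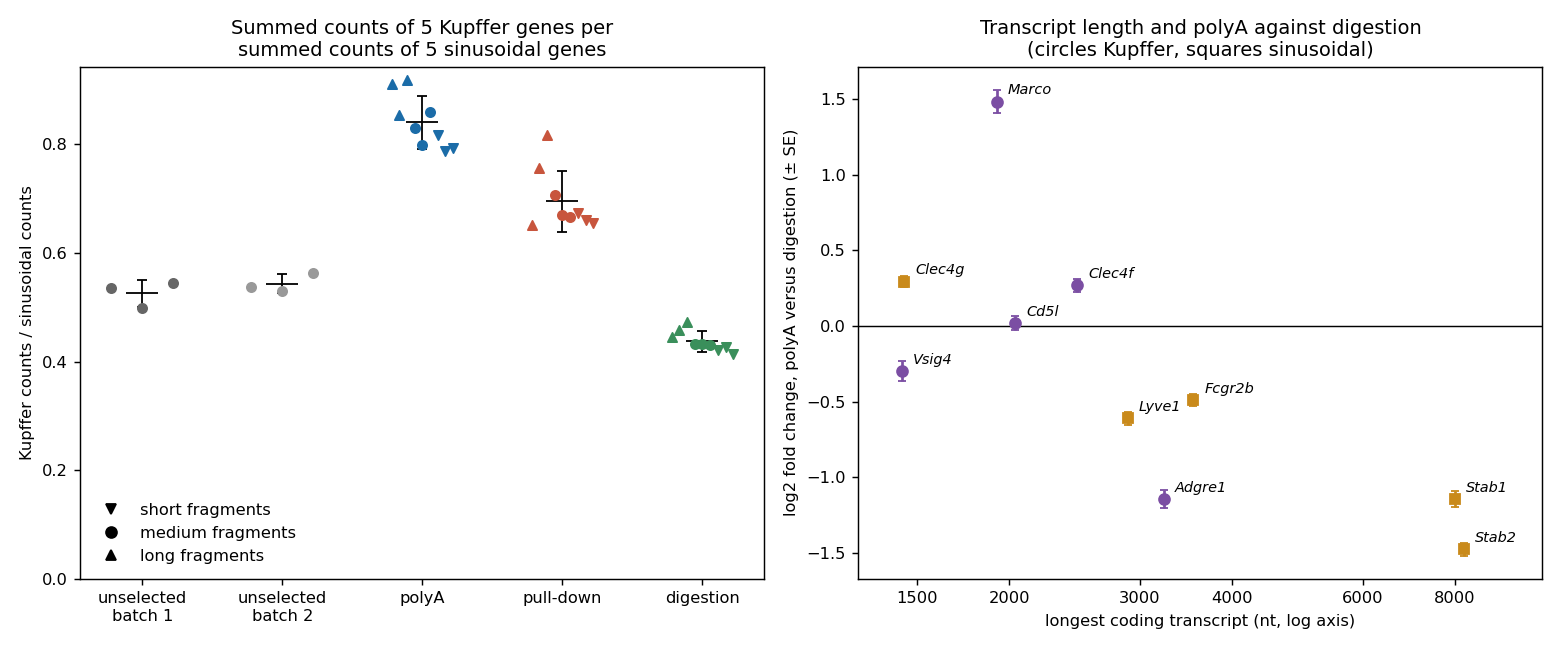
Left, summed Kupffer counts per summed sinusoidal counts in every liver library (linear axis from 0, mean and SD in black, marker shape for fragment length). Right, log2 fold change of polyA against digestion (± SE) by the longest coding transcript (log axis) of each gene; the ratio is highest in polyA (0.841) and lowest in digestion (0.437), and the long stabilins and Adgre1 lie lowest on the right.

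Further genes of the same cells were described from lists chosen by name. Of 20 other sinusoidal and endothelial genes, 18 fell and 0 rose in polyA against unselected, with a median log2 change of -1.09. Ptprb, an endothelial phosphatase, fell by 2.40 ± 0.06, and F8, which encodes clotting factor VIII made by this endothelium, by 2.59 ± 0.15. Kdr, the VEGF receptor, fell by 1.60 ± 0.06 and Eng, a TGF-beta co-receptor, by 0.83 ± 0.11. Of 20 other Kupffer and macrophage genes, 7 fell and 5 rose, with a median of -0.07. Cd163, the haemoglobin scavenger receptor, fell by 1.64 ± 0.14 and Csf1r, the macrophage growth factor receptor, by 1.07 ± 0.10, while Nr1h3, a nuclear receptor that hepatocytes also express, rose by 0.52 ± 0.06 and Spic, a transcription factor of iron-recycling macrophages, by 1.28 ± 0.50. Spic rested on 1 to 3 counts per unselected library of batch 1. The background in this comparison was 24.8% lower and 25.6% higher. In digestion against pull-down, 19 of the 20 macrophage genes fell and 0 rose (median -0.63), with Tyrobp, a signalling adaptor, at -1.40 ± 0.08, and 15 of the 20 endothelial genes fell and 2 rose (median -0.34), beside 36% lower and 34.7% higher over all genes. In pull-down against unselected, 9 of the 20 macrophage genes rose and 0 fell, and 9 of the 20 endothelial genes rose and 1 fell. In the same comparison 8 of 10 hepatocyte genes rose (median 0.36) and 6 of 10 stellate cell genes (median 0.41), beside 17.5% higher over all genes. In digestion against unselected, 2 macrophage genes fell and 0 rose, and 5 endothelial genes fell and 2 rose, beside 7.64% lower and 7.08% higher over all genes. All 10 hepatocyte genes were also lower in digestion than in pull-down (median -0.43), and 9 of 10 were higher in polyA than in unselected (median 0.51). Of the 10 stellate cell genes, 6 fell in polyA against unselected. The 10 monocyte and neutrophil genes summed to at most 10.1 and the 10 lymphocyte genes to at most 6.31 normalised CPM in any liver library. Fcgr3, which shares sequence with Fcgr2b, was at 2.45 ± 0.255 normalised CPM in digestion and 4.93 ± 1.01 in pull-down (n = 9 each), a log2 change of -0.93 ± 0.07 where Fcgr2b changed by -0.17.

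The markers were next compared between long and short fragments. Within pull-down, 9 of the 10 genes were higher with long than with short fragments and 0 lower (19.1% of the 15442 genes tested were called higher and 14.3% lower), by 0.22 to 0.56 on the log2 scale. Cd5l was at 78.4, 79.6 and 84.2 normalised CPM in the long libraries with slow, medium and fast ramp, and at 57.5, 57.9 and 61.0 in the short ones. Fcgr2b was at 32.7, 34.9 and 39.0 with long and 26.9, 26.8 and 27.5 with short fragments. For both genes the long libraries were all above the short ones, and medium fragments (Cd5l 58.3 to 61.3, Fcgr2b 26.6 to 29.1) stayed with the short. The log2 change was 0.51 ± 0.05 for Cd5l (adjusted p = 5.59e-08) and 0.49 ± 0.05 for Fcgr2b (adjusted p = 2.31e-07). Adgre1 changed by 0.48 ± 0.07, Vsig4 by 0.56 ± 0.09 and Clec4f by 0.40 ± 0.05, and Stab1 did not pass the test (0.12 ± 0.07, adjusted p = 0.160). Long and short libraries overlapped for Vsig4, Clec4f, Lyve1 and Stab1. They did not for the other 6 members, beside 21.9% of 15422 genes without overlap. For Vsig4 the shallow long library, at 6.54, was below all short ones (11.8 to 12.2), and for Clec4f it was at 55.6, among the short ones (54.63 to 59.95). The rRNA and Lars2 share moved with length in these libraries, from 14.2% to 15.5% with short to 22.7% to 24.5% with long fragments, and its part in the result was not tested. Without the shallow library, which is 1 of the 3 long ones, the same test gave 0.47 for Cd5l, 0.45 for Fcgr2b, 0.45 for Adgre1 and 0.35 for Marco, all called. With only the 9 pull-down libraries in the fit 3 genes were called higher, beside 638 of 14426 genes tested. On library totals 5 were, beside 1272 of 15442 genes higher and 5503 lower. Leaving out the medium-ramp long library ended the call of Lyve1 (adjusted p = 0.0772), and leaving out the fast-ramp long library ended those of Lyve1 (0.0694) and Clec4g (0.251).

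In polyA libraries 2 genes rose and 2 fell with longer fragments (24.9% of all genes were called higher and 24.9% lower). Stab1 was at 23.1, 25.4 and 22.8 with long and 27.9, 29.7 and 30.9 with short fragments, and Stab2 at 20.8, 20.8 and 22.3 against 24.7, 25.2 and 25.5. For both stabilins every long library was below every short one, with log2 changes of -0.33 ± 0.07 (adjusted p = 3.09e-04) and -0.25 ± 0.04 (adjusted p = 4.97e-06). Vsig4 (0.32 ± 0.09) and Fcgr2b (0.19 ± 0.05) rose. The other 6 changed by -0.02 to 0.15 without passing the test, and Lyve1 did pass without the fast-ramp long library (0.23, adjusted p = 0.0494). Digestion libraries gave 2 calls: Clec4f rose by 0.22 ± 0.05 (adjusted p = 0.0168) and Fcgr2b by 0.16 ± 0.04 (adjusted p = 0.0322), and 0 fell (4.33% of all genes were called higher and 1.72% lower). Clec4f was at 28.9, 28.4 and 29.7 with long and 25.4, 25.3 and 25.4 with short fragments, with no overlap. Leaving out any 1 of the 6 long or short digestion libraries ended at least 1 of these 2 calls, with adjusted p up to 0.0801 for Clec4f and 0.173 for Fcgr2b, and Marco passed without the slow-ramp short library (0.51, adjusted p = 0.0494).

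**Figure D4:**
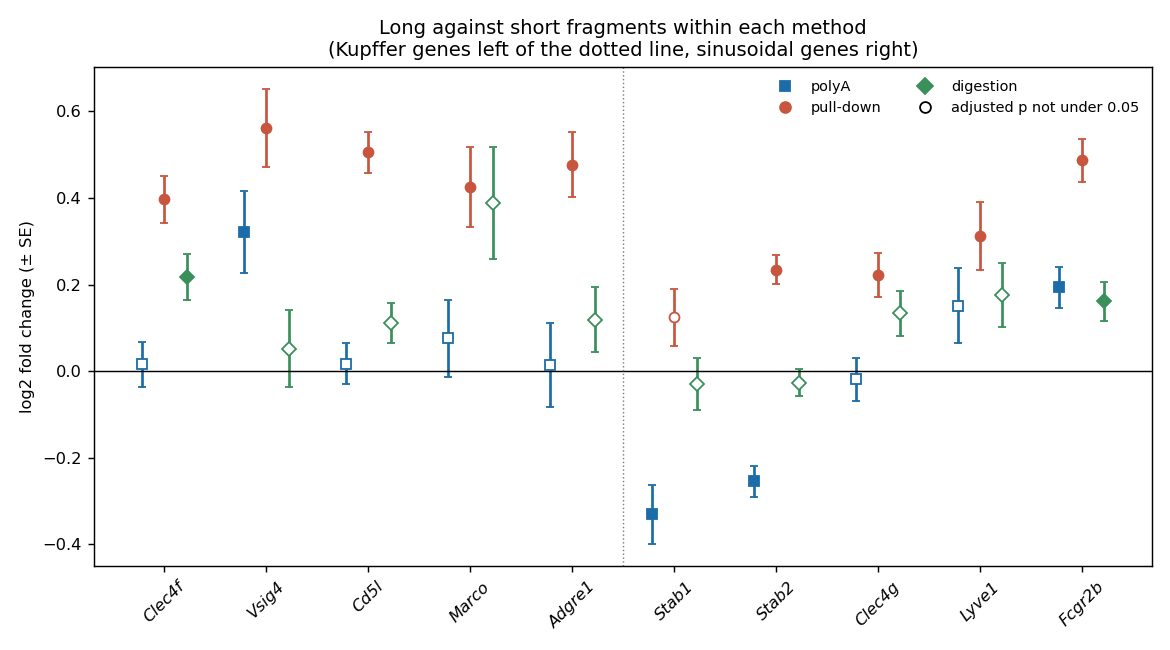
Log2 fold change (vertical axis, ± SE) of long against short fragments for each gene within each method, with open symbols where the adjusted p was not under 0.05. Pull-down points lie above 0 for all 10 genes, from 0.12 to 0.56, and Stab1 and Stab2 are below 0 in polyA; on library totals the pull-down values are lower and 5 are called.

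The differences between methods in the length change were tested as interaction terms. The log2 change from short to long was more positive in pull-down than in polyA for Cd5l (by 0.49 ± 0.07), Stab2 (0.49 ± 0.05), Adgre1 (0.46 ± 0.12), Stab1 (0.45 ± 0.09), Clec4f (0.38 ± 0.08) and Fcgr2b (0.29 ± 0.07), 6 of 10 genes beside 1.62% of all genes called higher and 1.38% lower. For Stab1 and Stab2 this includes a fall in polyA (-0.33 and -0.25). Batch and method cannot be told apart here. The background of this contrast depended on the setting. On library totals 131 of 15442 genes were called higher and 2577 lower, and without the shallow library 316 and 1015 of 15743. The member values in those 2 fits are not given here. The change with length was smaller in digestion than in pull-down for Vsig4 (-0.51 ± 0.13), Cd5l (-0.39 ± 0.07), Adgre1 (-0.36 ± 0.11), Fcgr2b (-0.33 ± 0.07) and Stab2 (-0.26 ± 0.05), 5 of 10 beside 8.09% called lower and 6.34% higher. On library totals 2 members were called in this contrast, beside 543 of 15442 genes lower and 3936 higher. Digestion against polyA differed for Stab1 (0.30 ± 0.09), Stab2 (0.23 ± 0.05) and Clec4f (0.20 ± 0.08), 3 of 10 beside 17% called higher and 15.7% lower. Taking the 27 selected libraries as 1 set, 8 genes were higher with long fragments and 0 lower (27.8% of all genes were called higher and 22.7% lower), by 0.11 for Clec4g to 0.31 for Vsig4, while Stab1 (-0.08 ± 0.04, adjusted p = 0.0846) and Stab2 (-0.02 ± 0.02, adjusted p = 0.617) did not pass. On the rRNA-free scale both stabilins were called lower (-0.12 and -0.06), and without the shallow library Stab1 was (-0.11, adjusted p = 0.0115). In polyA the Kupffer to sinusoidal count ratio was 0.854 to 0.918 with long and 0.788 to 0.817 with short fragments, and in digestion 0.446 to 0.473 and 0.413 to 0.426, with no overlap in either method. In pull-down it was 0.756 and 0.817 in the deep long libraries, 0.652 in the shallow one and 0.656 to 0.674 with short fragments.

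The PCR ramp rate gave no call for any member between fast and slow ramps (0.0712% of all genes were called in either direction by edgeR; DESeq2's Wald test called 49 genes and no member). Log2 changes ran from -0.07 for Vsig4 to 0.09 for Marco, with standard errors of 0.02 to 0.06. Before adjustment 1 member, Stab2, was under 0.05 (0.06 ± 0.02, adjusted p = 0.471).

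Heart was represented by 1 unselected library, so its values have no replicate check and no test. CPM for this comparison were scaled within the heart library and the 3 liver libraries of batch 1, and are not on the scale of the other sections. Intervals are exact Poisson intervals at 95% and cover counting error only. Of the 10 genes, 7 were more than 2-fold lower in heart than in each liver library, and 0 higher; of the 12828 genes tested, 20.6% were past that fold lower and 22.6% higher. Clec4f had 3 counts in heart and 178, 169 and 192 in liver, a ratio of liver to heart of 91.8 (31.4 to 445). Cd5l had 3 counts against 200, 172 and 193, a ratio of 96.1 with an interval from 32.9. Vsig4 had 2 counts against 53, 43 and 45, a ratio of 36.0 (9.96 to 297). Marco had 0 counts against 13, 12 and 26. With a floor of 3 counts it was 8.65-fold lower, and at the upper Poisson limit of the heart count 7.03-fold lower. These 4 Kupffer genes were thus at or under 3 counts in heart.

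Adgre1, which macrophages of other tissues also express, did not pass the 2-fold rule, with 58 heart counts (44.04 to 74.98) against 66, 60 and 59, a ratio of liver to heart of 1.63 (1.26 to 2.15). The sinusoidal genes divided. Stab2 had 1 count in heart against 359, 365 and 386 in liver, a ratio of 567 with an interval from 102, and Clec4g 1 count against 91, 90 and 97, a ratio of 142 with an interval from 25.5. Fcgr2b was 4.64-fold lower in heart (3.48 to 6.34), with 46 counts against 144, 128 and 146. Stab1 had 457 counts against 324, 307 and 283, or 15.6 normalised CPM in heart and 15.97 ± 1.21 in liver, and Lyve1 53 counts against 34, 26 and 34, or 1.81 (1.36 to 2.37) and 1.64 ± 0.181. On library totals the log2 ratio of heart to liver was 0.49 for Stab1, 0.67 for Lyve1 and -0.18 for Adgre1 (-0.70 on the TMM scale), all under 2-fold, and -1.69 for Fcgr2b (-2.21 on the TMM scale). The paired receptors Stab1 and Stab2, close in liver at 15.97 and 19.4 normalised CPM over transcripts of similar length, were thus 15.6 and 0.0342 in heart.

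Among the wider lists, 8 of the 20 other sinusoidal and endothelial genes were past 2-fold higher in heart and 7 lower. The pan-endothelial genes Pecam1 (5.53-fold), Cdh5 (4.81-fold) and Kdr (2.98-fold) were higher, and Oit3, with 2 counts against 96, 108 and 89, and Dnase1l3, with 6 against 209, 186 and 214, were lower. Eng (1.61-fold) and Ptprb (1.16-fold) were not past 2-fold. Of 19 other macrophage genes that passed the filter, 6 were lower, among them Slc40a1, the iron exporter (9.41-fold), and Nr1h3 (9.05-fold), and 1, Folr2, was higher (2.38-fold). The others, such as C1qa with 107 counts against 62, 71 and 93, were not past 2-fold. Heart muscle genes summed to 8646 normalised CPM in heart and at most 0.155 in liver, and hepatocyte genes to 51.5 in heart and 14540 to 14730 in liver. Heart thus held hepatocyte gene counts at a low level, with 950 counts of Alb against 171814 to 182963, and their part in the few counts of Clec4f, Cd5l, Vsig4, Stab2 and Clec4g was not tested. Pecam1, Cdh5, Oit3, Dnase1l3 and Folr2 are named here as examples chosen after their values were seen.

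**Figure D5:**
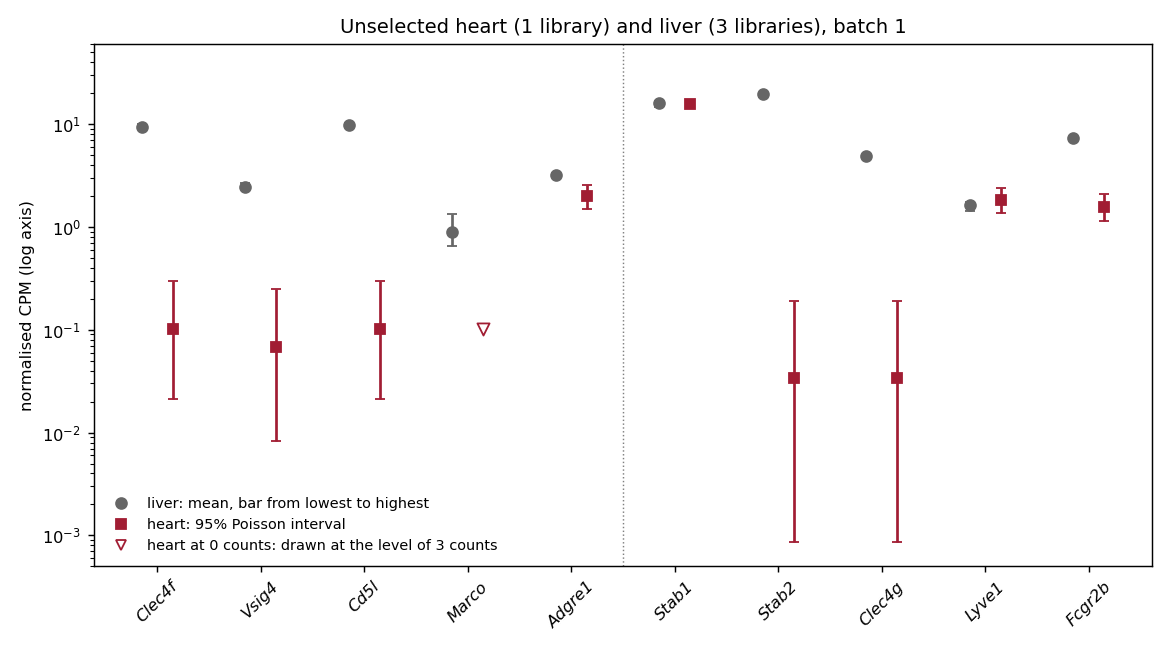
Normalised CPM (log axis) of the 10 genes in unselected liver (grey, mean of 3 libraries with a bar from lowest to highest) and in 1 unselected heart library (red, 95% Poisson interval). Heart lies below liver for 7 genes, level with it for Stab1 and Lyve1 and at 1.98 against 3.23 for Adgre1; Marco, at 0 counts, is drawn as a triangle at the level of 3 counts.

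Over the 33 liver libraries, the genes outside the Kupffer list whose log2 levels followed the mean of its 5 standardised profiles most closely were Gm25394, a small nucleolar RNA gene (Pearson r = 0.957), Col3a1, a collagen of stellate cells and fibroblasts (0.949), and Tgfbi, an extracellular matrix protein gene (0.944). For the sinusoidal list they were Adgre1 (0.991) and the small nucleolar RNA genes Snora73a (0.988) and Gm25835 (0.986). Adgre1 stood at 0.827 with the mean of its own list, of which it is a part, and Clec4g followed the Kupffer mean at 0.932. Within the Kupffer list r ran from 0.724 for Marco to 0.983 for Cd5l. The libraries share 1 RNA sample and differ mainly by method and batch, so these values describe shared variation between preparations.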

How the data were processed

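RNA-seq libraries of liver (33) and heart (1) from 1 mouse were analysed. The deposited table held estimated counts per gene, made by the authors with Salmon 1.9.0, with UMI-tools 1.1.1 and R 4.4.0 also named, against GRCm38, per the submitters' processing notes; the transcript set, the use of strand and the treatment of duplicate reads are not given in the sources used here. Counts were rounded to whole numbers. Of 51368 gene IDs, 50896 matched GENCODE M21, and the other 472 took at most 0.0452% of a library. Genes were tested with edgeR 4.0.16 (R 4.3.3, quasi-likelihood, TMM, filterByExpr, Benjamini-Hochberg, threshold 0.05). Method and batch comparisons used 33 liver libraries with ramp and length as covariates, and length comparisons used 27 selected libraries with method by length cells and ramp. Heart was not tested: a gene was called when past 2-fold against each of 3 liver libraries. The procedure was tested on simulated data. Alternatives were DESeq2 1.42.0 and its size factors, library totals, totals without 309 rRNA genes and Lars2, no filter, smaller fits and leaving out libraries. All 10 members passed the filter in both fits. The 10 genes, the comparison lists and the tests were chosen with earlier results of these data known. Named genes were the members, the 3 highest in each list, the 2 most changed called genes of the macrophage and endothelial lists in 4 comparisons, the 3 closest profiles per member list and Fcgr3; from these, some were printed. Pecam1, Cdh5, Oit3, Dnase1l3 and Folr2 fall outside this rule and were chosen after their values were seen. Numbers do not pair the unselected libraries (see the closing section). No p-value carries over to other animals.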

Additional observations from a re-analysis of the deposited data

Results flagged for a closer look

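Gaps within a group were examined in the 3 methods, with 9 libraries each, for the 10 genes and the Kupffer to sinusoidal count ratio, 33 sets of values in all, of which chance alone marks about 1 in 20. Marco stood apart in polyA with fast ramp and long fragments (5.868 normalised CPM) and in pull-down with slow ramp and long fragments (13.07, on 16 counts of the library with 1.13 M counts).

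The change from short to long fragments differed between methods by an interaction test (edgeR quasi-likelihood, adjusted p under 0.05). Between pull-down and polyA the log2 difference was 0.3812 for Clec4f, 0.4888 for Cd5l, 0.463 for Adgre1, 0.455 for Stab1, 0.4887 for Stab2 and 0.2934 for Fcgr2b. Between digestion and pull-down it was -0.5097 for Vsig4, -0.3945 for Cd5l, -0.3582 for Adgre1, -0.2605 for Stab2 and -0.3254 for Fcgr2b. Between digestion and polyA it was 0.2017 for Clec4f, 0.3011 for Stab1 and 0.2282 for Stab2. Pull-down libraries also differed in rRNA and Lars2 share by length, and the part of that share in these differences was not tested.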

How the results depend on the processing

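The scale set most changes. On library totals, which include rRNA, all members rose against unselected: polyA raised 10 and lowered 0 and digestion raised 10 and lowered 0. Of all 15422 genes, 14264 rose and 355 fell in polyA, 15101 and 42 in digestion and 14635 and 42 in pull-down. Values that turned were, for polyA, Clec4f 2.35, Vsig4 1.894, Cd5l 2.162, Adgre1 1.132, Stab1 1.384, Stab2 0.8766, Clec4g 2.524, Lyve1 2.005 and Fcgr2b 1.951 (log2). For digestion they were Clec4f 2.367, Vsig4 2.358, Cd5l 2.3, Marco 1.417, Adgre1 2.352, Stab2 2.635, Clec4g 2.363, Lyve1 2.644 and Fcgr2b 2.46, and for pull-down Fcgr2b 2.074. Digestion against pull-down then gave 2 members higher (Fcgr2b 0.3865, Stab1 0.1928) and 6 lower, beside 11397 of 15422 genes higher and 1228 lower, with Stab2 at 0.04146 and not called. PolyA against digestion gave 1 higher (Marco), with Cd5l turned to -0.2223, beside 3919 genes higher and 8528 lower. Long against short gave 2 lower over all selected libraries, beside 5403 of 15442 genes. It gave 1 higher in digestion, beside 499 genes, and 5 higher in pull-down, beside 1272. The digestion minus pull-down length term had 2 called, beside 543 genes lower and 3936 higher. On totals without rRNA genes and Lars2, digestion against pull-down gave 1 higher (Fcgr2b 0.09257), beside 8361 of 15422 genes. PolyA against digestion gave 1 higher (Marco) with Cd5l turned to -0.2247, beside 3943 genes higher and 8589 lower. Pull-down against unselected gave 5 higher and 1 lower, beside 1283 and 3573 genes. Long against short over all selected libraries gave 2 lower, beside 4352 of 15442. DESeq2's Wald test and its size factors in edgeR each gave 7 higher and 1 lower in pull-down against unselected. Of all 15422 genes, the first called 2038 higher and 2922 lower and the second 2054 and 2799. Fitting the 9 pull-down libraries alone left 3 genes higher with length, beside 638 of 14426 genes.

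Leaving out 1 library gave 0 to 1 members higher in polyA and 0 to 1 lower in pull-down against unselected, 0 to 2 higher with length in digestion, and, without the shallow pull-down library, 1 lower with length over all selected libraries. That last fit called 4161 of 15743 genes lower. Over all genes, leaving out 1 unselected library of the batch gave 3428 to 3475 higher in polyA and 1947 to 2006 lower in pull-down. Leaving out 1 digestion library gave 359 to 495 genes higher with length. The cause of these changes was not tested. Replicate numbers do not pair the unselected libraries: same-number deviations correlated at 0.0935, -0.00646 and -0.0742 over 2849 genes. With the replicate number as a block, in a fit of the 6 unselected libraries alone, 82 of 10958 genes differed between batches, 0 of them members. Without the block, a fit of these libraries alone gave 39 of 10642 and the fit of 33 libraries 0 of 15422. Counts of 12 to 53 per unselected library limit Marco, Lyve1 and Vsig4.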
